A study of Sus scrofa with 6 samples.

Results

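The lysosomal cathepsins B, H and Z and the lysosomal membrane protein LAPTM5 are each read here from 1 probe set of the porcine GeneChip. These 4 genes are all those whose probe set title names a cathepsin or LAPTM5 in the comparison table that the authors deposited. They are 4 of the 287 genes named there and take 4 of its 550 probe sets, while 23935 non-control probe sets of the array were tested. Probe sets outside those 550 carry no gene name here, so whether the array holds further probe sets of these genes is not known. The arrays held total RNA of 2 muscles of Meishan gilts, 3 littermates slaughtered at 150 days of age, for which the labels give no treatment beyond a standard diet. Soleus, with 3 arrays, is the name in the sample titles; the protocol shortens it to SE, describes it as oxidative and places the sampling in its deep portion. Longissimus dorsi, also with 3 arrays, is described as a fast-twitch, glycolytic back muscle and was taken at the last rib. Within a muscle the samples carry biological replicate numbers 1 to 3, which the labels do not tie to a pig, and littermates share parents. With so few arrays the precision of each value is limited.

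Cathepsins are peptidases of the lysosome, the acidic compartment in which cells degrade protein delivered by endocytosis and autophagy. They are made as inactive precursors, sorted through the Golgi by mannose 6-phosphate tags and activated by cleavage in the acid lumen. Cathepsins B, H and Z are cysteine peptidases of the papain family, and they differ in where they cut a chain. LAPTM5 is a multispanning protein of the lysosomal membrane, found mainly in cells of the blood lineage, where it takes part in sending antigen receptors to the lysosome. In skeletal muscle, lysosomal proteolysis acts beside the ubiquitin-proteasome system and the calpains in the turnover of fibre proteins. Cathepsins are also abundant in macrophages and are made by fibroblasts.

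Each value below is a log2 expression from which the authors took the median of the 6 arrays for that probe set. Differences between arrays can be read from it, whereas levels, and so the presence of skeletal muscle markers or the abundance of one gene against another, cannot. All 4 genes had higher means in soleus than in longissimus dorsi, by 1.57-fold to 1.83-fold, with no overlap between muscles. They were chosen by that pattern, through the p and fold of this same comparison. The authors' deposited table kept probe sets at an unadjusted p under 0.05 and at least 1.5-fold, and it gave CTSB p = 0.0458 and 1.59-fold. The authors' deposited table gave CTSH p = 0.0178 and 1.83-fold. It gave CTSZ p = 0.0161 and 1.65-fold, and LAPTM5 p = 0.0343 and 1.57-fold, again in the authors' deposited table. The difference between muscles is therefore described and not tested here. Of all probe sets tested, 323 were kept in that table as higher in soleus, which is 1.35%. At the same limits in limma, 1219 probe sets, or 5.09%, differed in either direction, 692 of them, or 2.89% of all, being higher in soleus. In 1455 probe sets, or 6.08%, the lowest soleus value lay above the highest longissimus dorsi value. After Benjamini-Hochberg adjustment over the array, limma called 2 probe sets (0.00836%) and 0 of the 4 genes (adjusted p = 0.378 to 0.488). At an unadjusted p under 0.05 with 1.5-fold, limma called all 4, as the selection on the same values makes nearly certain.

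Cathepsin B, an endopeptidase that also trims dipeptides from the carboxyl end, had values of 0.19, 0.13 and 0.81 in soleus replicates 1, 2 and 3, against -0.42, -0.32 and -0.13 in the longissimus dorsi replicates. Soleus replicate 3 stood well above the other soleus arrays, which lay close together and not far above longissimus dorsi replicate 3. The means were 0.37 ± 0.38 in soleus and -0.29 ± 0.15 in longissimus dorsi (SD, n = 3 arrays each), a log2 difference of 0.67 (SE 0.21). Without soleus replicate 3 the difference of CTSB was 0.45, below the log2 value of a 1.5-fold change, and without longissimus dorsi replicate 1 it was 0.60 and its unadjusted limma p exceeded 0.05. Because each probe set is centred on its median, the lowest soleus value and the highest longissimus dorsi value of a gene whose muscles do not overlap have the same size and opposite sign. For CTSB that gap was 0.26, smaller than the range of 0.68 among its soleus arrays.

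Cathepsin H, chiefly an aminopeptidase, had values of 0.72, 0.18 and 0.75 in soleus, against -0.18, -0.21 and -0.58 in longissimus dorsi, each in the order of replicates 1, 2 and 3. Soleus replicates 1 and 3 were high and replicate 2 was low, and longissimus dorsi replicate 3 lay below the other arrays of its muscle. The means were 0.55 ± 0.32 in soleus and -0.32 ± 0.22 in longissimus dorsi (SD, n = 3 arrays each). The log2 difference of CTSH was 0.87 (SE 0.21). It kept at least 0.74 when any 1 array was left out.

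Cathepsin Z, a carboxypeptidase also called cathepsin X, is titled as such in the files but carries a clone name in place of the symbol CTSZ. Its values were 0.66, 0.15 and 0.70 in soleus replicates 1, 2 and 3, against -0.15, -0.25 and -0.26 in the longissimus dorsi replicates. Soleus replicate 2 was again the low array of its muscle, and the longissimus dorsi arrays lay within 0.11 of each other. The means were 0.50 ± 0.31 in soleus and -0.22 ± 0.06 in longissimus dorsi (SD, n = 3 arrays each), a log2 difference of 0.72 (SE 0.19). Leaving out 1 array at a time gave 0.62 to 0.90.

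LAPTM5, named in the files through similarity of its transcript to the human protein, had values of 0.25, 0.52 and 0.12 in soleus replicates 1, 2 and 3, against -0.69, -0.27 and -0.12 in the longissimus dorsi replicates. Here soleus replicate 2 was the highest array and replicate 3 the lowest of that muscle, the reverse of the cathepsins. The means were 0.30 ± 0.21 in soleus and -0.36 ± 0.29 in longissimus dorsi (SD, n = 3 arrays each), a log2 difference of 0.65 (SE 0.20). Longissimus dorsi replicate 1 lay far below the other arrays, and without it the difference of LAPTM5 was 0.49. Without soleus replicate 2 the difference was 0.54, so that LAPTM5 missed the 1.5-fold limit in both cases.

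**Figure D1:**
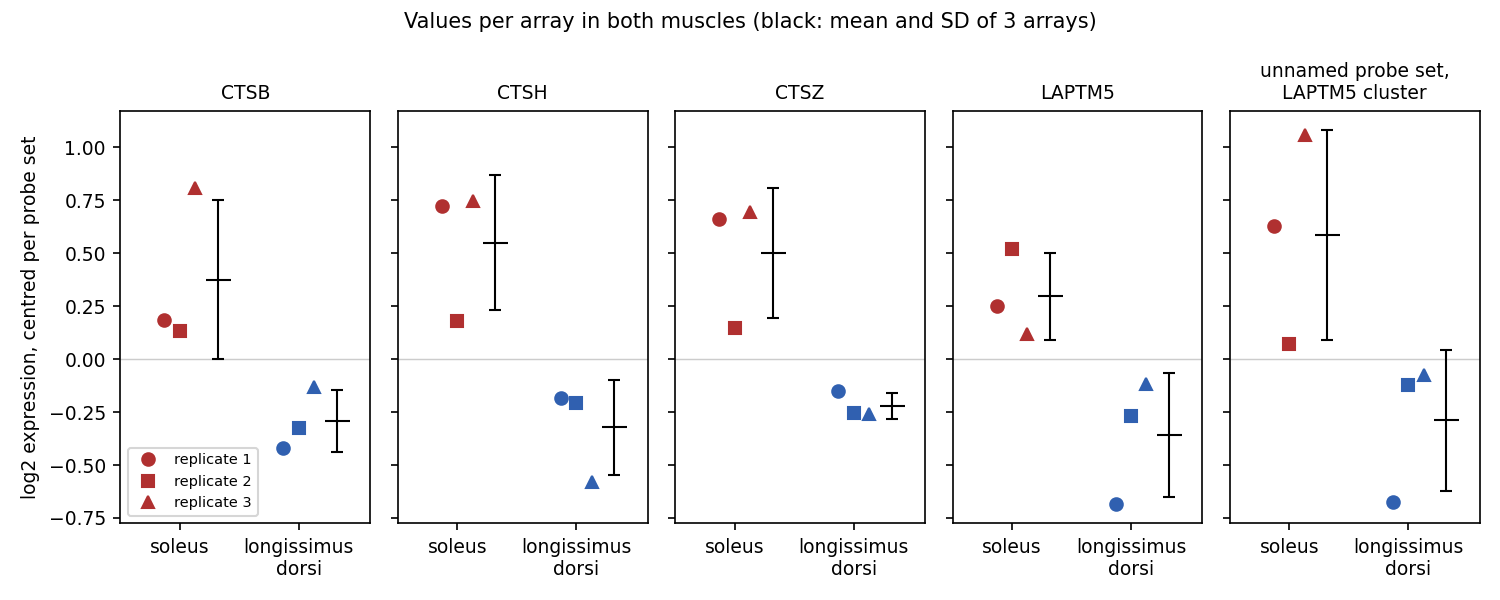
Centred log2 expression (vertical axis) of CTSB, CTSH, CTSZ, LAPTM5 and the unnamed probe set of the LAPTM5 cluster on each array of soleus (red) and longissimus dorsi (blue), with the mean and SD of 3 arrays in black and marker shapes for replicate numbers. Soleus replicate 2 is the lowest soleus array for the 3 cathepsins and the highest for LAPTM5, and no panel shows an overlap between muscles.

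A further probe set on the array shares with the LAPTM5 probe set the cluster number in its identifier. The files give it no name, and the authors' table did not keep it. Its values were 0.63, 0.07 and 1.06 in soleus replicates 1, 2 and 3, against -0.67, -0.12 and -0.07 in the longissimus dorsi replicates. Soleus replicate 2 was its lowest soleus array and replicate 3 its highest, so it followed the cathepsins rather than LAPTM5 within soleus. In longissimus dorsi its replicate 1 was low, as in LAPTM5. Its log2 difference was 0.88 (SE 0.28), or 1.84-fold, but its arrays spread widely enough that an equal-variance unpaired comparison gave a p of 0.0637, just outside the limit of the authors' table. Of the 4 genes, CTSB at a p of 0.0458 lay closest inside the p limit and LAPTM5 at 1.57-fold closest inside the fold limit. The probe sets of CTSB, CTSH and CTSZ had no other probe set with their cluster number.

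In order of size the log2 differences were CTSH (0.87), CTSZ (0.72), CTSB (0.67) and LAPTM5 (0.65). Among neighbours in that order, only CTSH and CTSZ lay apart by more than the SE of their gap, and no gap was tested. The difference of CTSH exceeded that of CTSZ by 0.15 (SE 0.11), that of CTSZ exceeded CTSB by 0.06 (SE 0.21), and CTSB exceeded LAPTM5 by 0.01 (SE 0.33). Their median was 0.69, against a median of -0.03 over all probe sets tested and of 0.85 over the 323 kept as higher in soleus. Among those 323, ranked from the largest difference, CTSH stood at place 153, CTSZ at 227, CTSB at 267 and LAPTM5 at 277. The 4 genes are thus among the moderate to small differences of the table that kept them.

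**Figure D2:**
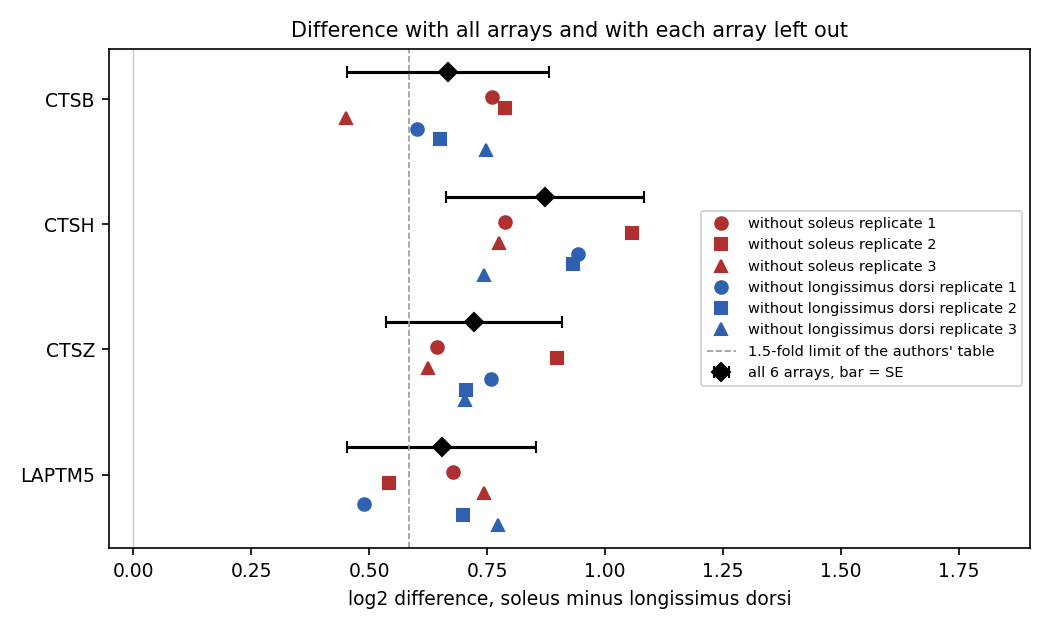
Log2 difference (horizontal axis, soleus minus longissimus dorsi) of the 4 genes with all 6 arrays (black, bar = SE) and with each soleus (red) or longissimus dorsi (blue) array left out. CTSB without soleus replicate 3 (0.45) and LAPTM5 without soleus replicate 2 (0.54) or longissimus dorsi replicate 1 (0.49) fall left of the dashed line at 1.5-fold.

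The arrays differed in width, which bears on how far a value stands out. Over all probe sets the SD was 0.307, 0.276 and 0.496 on soleus replicates 1, 2 and 3, against 0.236 to 0.299 on the longissimus dorsi arrays. Measured in these array SDs, the value of CTSB on soleus replicate 3 was 1.63, against 0.604 and 0.476 on replicates 1 and 2. CTSH reached 2.35 array SDs on soleus replicate 1 and 1.51 on replicate 3, and CTSZ reached 2.15 and 1.41. On the scale of the array's own spread, soleus replicate 1 was thus the highest array for CTSH and CTSZ. For LAPTM5 the farthest array was longissimus dorsi replicate 1, at -2.50 array SDs, and the highest was soleus replicate 2, at 1.89. Quantile normalization, which gives all arrays the same width, put the difference of CTSB at 0.63. How far the width of soleus replicate 3 enters that difference was not tested beyond this and leaving that array out.

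The spread within a muscle entered the p that chose these genes, whereas whether their arrays deviated together did not enter directly and is set out apart. It is not free of the selection, since genes kept as higher in soleus share the median centring and the wider soleus replicate 3. Correlations between pairs of other kept probe sets were not formed for comparison. For each gene the mean of each muscle was subtracted from its arrays. CTSH and CTSZ then moved together, with deviations of 0.17 and 0.16 on soleus replicate 1, -0.37 and -0.35 on soleus replicate 2, and 0.20 and 0.19 on soleus replicate 3. Their 6 deviations correlated at r = 0.87, given here as a description over 6 arrays that share pigs and centring. CTSB deviated by -0.19, -0.24 and 0.43 on the same soleus arrays and correlated at 0.25 with CTSH and 0.50 with CTSZ. LAPTM5 deviated by -0.05, 0.22 and -0.18 there and correlated at -0.80 with CTSH, -0.70 with CTSZ and -0.15 with CTSB. Without soleus replicate 3, the pair of CTSH and CTSZ remained at 0.84 and LAPTM5 at -0.75 and -0.62 with them, whereas CTSB went to -0.46 with CTSH, -0.01 with CTSZ and 0.73 with LAPTM5. Leaving out that 1 array thus changed the place of CTSB in this pattern. The other arrays were not left out in turn for these correlations, so dependence on them is not known. The unnamed probe set of the LAPTM5 cluster correlated at 0.83 with CTSB and at -0.02 with LAPTM5, and without soleus replicate 3 these were 0.72 and 0.42.

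**Figure D3:**
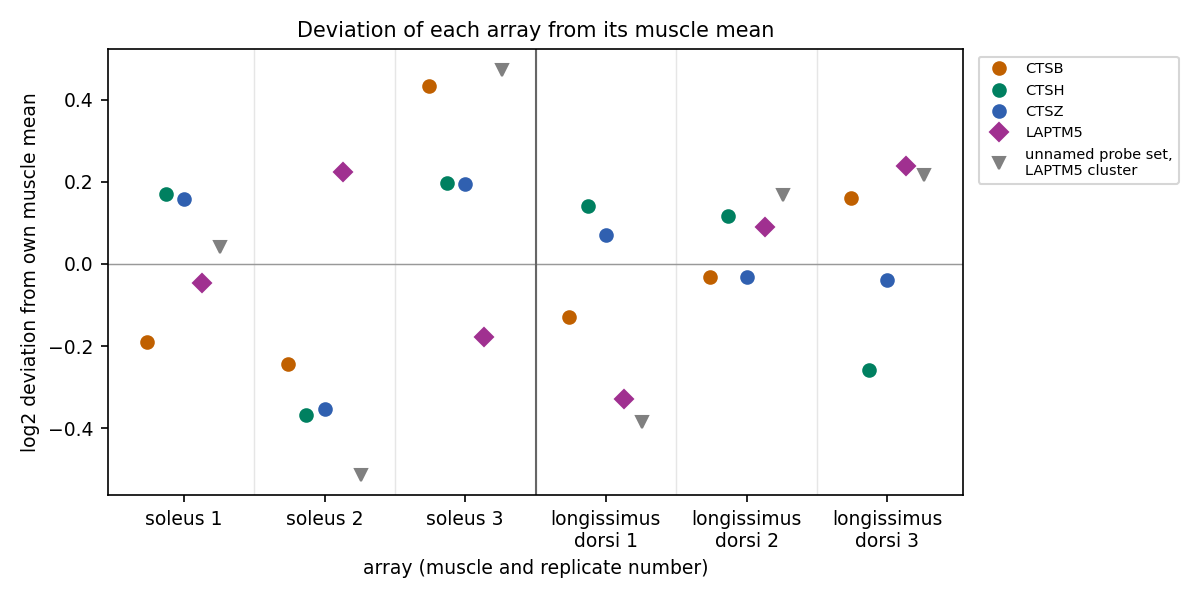
Deviation of each array (horizontal axis) from the mean of its own muscle, in log2 units, for the 3 cathepsins (circles), LAPTM5 (diamonds) and the unnamed probe set of its cluster (triangles). On soleus replicate 2 the 3 cathepsins lie between -0.37 and -0.24 and LAPTM5 at 0.22.

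Other genes of the lysosome were looked up in 5 lists, of proteases, cathepsin inhibitors, membrane and proton pump proteins, hydrolases with their helpers, and sorting and transcription factors. Gene names were at hand only for probe sets of the authors' table, so 4 of the 81 listed genes could be named, and the other 77 were not analysed here. All 4, legumain, GUSB, GALNS and NPC1, had higher means in soleus, and 0 of the 4 passed limma's adjusted threshold (adjusted p = 0.269 to 0.479). All 4 passed an unadjusted limma p under 0.05 with 1.5-fold, as did 2.89% of all probe sets tested in that direction. Since they too were kept for differing between these muscles, their count supports nothing about the lysosome as a whole. No cystatin, no other cathepsin and no proton pump subunit was named in that table.

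Legumain (LGMN), the asparaginyl endopeptidase of the lysosome that cleaves several cathepsins to their mature forms, had values of 0.44, 0.36 and 0.63 in soleus replicates 1, 2 and 3, against -0.57, -0.36 and -0.44 in the longissimus dorsi replicates. Its log2 difference was 0.93 (SE 0.15), and the SD of its soleus arrays, 0.14, was below those of the 3 cathepsins (0.31 to 0.38). Beta-glucuronidase (GUSB), which removes glucuronic acid from glycosaminoglycans, had values of 0.79, 0.24 and 1.56 in soleus, against -0.25, -0.26 and -0.24 in longissimus dorsi. Its soleus arrays kept the order of the 3 cathepsins, with replicate 3 high and replicate 2 low. GALNS, a sulfatase of keratan and chondroitin sulfate breakdown, had 0.16, 0.16 and 0.76 in soleus, against -0.16, -0.38 and -0.43 in longissimus dorsi. As in CTSB, a single soleus array, replicate 3, stood high. NPC1, a membrane protein that carries cholesterol out of the lysosome, had 0.14, 0.67 and 0.28 in soleus, against -0.48, -0.71 and -0.14 in longissimus dorsi. NPC1 shared with LAPTM5, also a lysosomal membrane protein, its highest value on soleus replicate 2. The lysosomal transporter SLC15A3 and the channel P2RX4, given further below, were lowest on that array. The log2 differences of GUSB, GALNS and NPC1 were 1.11 (SE 0.30), 0.68 (SE 0.21) and 0.81 (SE 0.21).

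**Figure D4:**
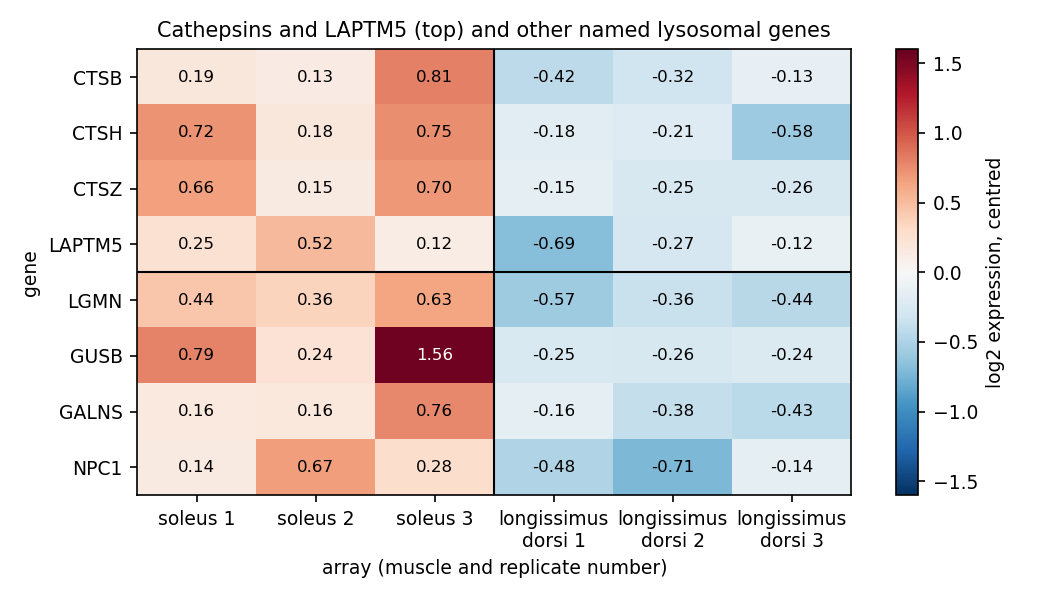
Centred log2 expression (colour and printed value) of the 4 genes (rows above the line) and of legumain, GUSB, GALNS and NPC1 (rows below it) on the soleus arrays (left) and longissimus dorsi arrays (right). Replicate 3 is the highest soleus array in 6 of the 8 rows; LAPTM5 and NPC1 are highest on replicate 2.

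A list of 15 genes of autophagy and other muscle proteolysis, among them the ubiquitin ligases FBXO32 and TRIM63 and the calpains, had 0 genes named in the authors' table. Whether they differed between the muscles was not analysed here.

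Markers of other cells that a muscle sample can hold were looked up in the same way, and a change in the number of such cells and a change in their RNA per cell cannot be told apart in these bulk samples. Of 27 leukocyte and macrophage markers, LAPTM5 left aside, 0 were named in the authors' table, as were 0 of 5 endothelial and 0 of 4 adipocyte markers. Genes outside the leukocyte list that are known from leukocytes were named there, picked after their values were seen, and they ran both ways. Coagulation factor XIII A1 (log2 differences of 1.84 and 1.13 on its listed probe sets), CCR1 (0.76) and IRF5 (0.68) had higher means in soleus, and S100A9 (-1.09) had a lower one. Of 7 fibroblast markers 3 were named, COL1A1 and COL1A2, the chains of type I collagen, and THY1, a surface protein. Their mean over the 3 genes was 0.91, 0.27 and 1.03 in soleus replicates 1, 2 and 3, against -0.24, -0.47 and -0.50 in the longissimus dorsi replicates. The soleus arrays of this mean stood in the order of the 3 cathepsins, low on replicate 2. A second COL1A1 probe set within it did not, with 0.44, 0.40 and 0.21 in soleus, lowest on replicate 3. The other probe sets of these 3 genes were lowest on replicate 2. The nerve and Schwann cell list had 1 of 4 markers named, MBP, and the muscle fibre list 1 of 14, the fast myosin heavy chain MYH4. Both had lower means in soleus (log2 differences of -0.91, SE 0.15, and -0.59, SE 0.18). The values are centred, so none of these markers could be called absent, and the part of these cells in the differences of the 4 genes was not tested.

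The mean of the 4 genes was 0.45, 0.25 and 0.59 in soleus replicates 1, 2 and 3, against -0.36, -0.26 and -0.27 in the longissimus dorsi replicates. The other 329 named probe sets were ranked by their correlation with this mean over the 6 arrays. The pattern contains the muscle difference for which all of them were kept, and 108 of the 329 had r over 0.9. The 8 most alike had r of 0.98 to 1.00. They were transforming growth factor beta induced, a matrix adhesion protein (log2 difference 1.54, SE 0.23), legumain, vimentin, the intermediate filament protein of mesenchymal cells (0.73, SE 0.16), a probe set titled BCSC-1 (0.82), the actin-binding transgelin 2 (1.00), the A1 subunit of coagulation factor XIII (1.84, SE 0.35), microfibrillar-associated protein 4 (1.27) and the type XVI collagen chain (1.22). After removal of the muscle means the correlations of these 8 with the mean of the 4 genes were 0.88 to 0.99. The 8 were ranked over the same 6 arrays, so these values are no separate support. A second probe set of transforming growth factor beta induced differed by 0.98. It was lowest on soleus replicate 3, with 0.46, 0.38 and 0.29 on replicates 1, 2 and 3. The 4 most opposite, all with lower means in soleus, were titled elongation protein 4 homolog (-0.68), ankyrin 1 (-0.60), myotubularin related protein 15 (-0.61) and BCCIP beta (-0.84).

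Nearest neighbours were also ranked for each gene singly, a ranking added after the values were seen. CTSB ran closest to prostaglandin-endoperoxide synthase 1, a cyclooxygenase, with 0.30, 0.35 and 1.40 in soleus replicates 1, 2 and 3, against -0.81, -0.58 and -0.30 in the longissimus dorsi replicates (r = 1.00). CTSH ran closest to a probe set titled transmembrane anchor protein 1 (r = 0.99). CTSZ ran closest to a COL1A1 probe set, with 1.31, 0.42 and 1.43 in soleus, against -0.42, -0.72 and -0.61 in longissimus dorsi (r = 1.00). Probe sets of COL5A1 and COL1A2 came next. The second COL1A1 probe set differed in order, with 0.44, 0.40 and 0.21 in soleus, against -0.21, -0.68 and -0.78 in longissimus dorsi. LAPTM5 ran closest to MEF2C, a transcription factor of muscle and other lineages, with 0.26, 0.54 and 0.19 in soleus, against -0.52, -0.29 and -0.19 in longissimus dorsi (r = 0.98).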

How the data were processed

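Biotinylated cRNA of each sample was hybridised to a porcine GeneChip, per the labels' protocols; MAS5 version 2.3.1 is named in the submitters' processing notes with no role. The deposited values are log2 expression less the median of the 6 arrays, taken per probe set by the authors, as found from the values, so no intensity, background or filter on dim probe sets could be formed. Per the file headers, the authors' table gives a p-value of an unpaired test and a linear fold, with limits of 0.05 and 1.5.

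The 188 control probe sets were left out. Soleus was set against longissimus dorsi over all 23935 others with limma 3.58.1 in R 4.3.3 (lmFit, eBayes, Benjamini-Hochberg), which was also tested on simulated data. Correlations and counts were made in Python 3.11.15. Alternatives were quantile normalization, a replicate block, an unmoderated test, the adjusted threshold and leaving out each array. The genes named were the 4 members, listed genes named in the authors' table, up to 4 per list, and the 8 most alike and 4 most opposite named probe sets. Members and lists were chosen with earlier results of these data known.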

Additional observations from a re-analysis of the deposited data

How the results depend on the processing

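The log2 differences of the 4 genes stayed above 0 in all 36 values from 9 alternative settings, which the choice of members largely fixes. They moved by less than 1 within-muscle SD in each, which could have failed only under quantile normalization. The replicate block and the unmoderated test cannot change a difference. Since the muscles do not overlap, leaving out 1 array cannot reverse its sign. With 3 arrays per muscle, it also cannot move a difference by 1 such SD. Over the left-out arrays the differences ran from 0.45 to 0.79 for CTSB, 0.74 to 1.06 for CTSH, 0.62 to 0.90 for CTSZ and 0.49 to 0.77 for LAPTM5. Quantile normalization gave 0.63, 0.85, 0.67 and 0.74. Adjusted p-values of the 4 genes ran from 0.237 to 0.990 over these settings, and 0 of 36 were under 0.05. The count of 1219 probe sets past the limits on unadjusted p and fold in limma (692 higher and 527 lower in soleus) was 549 with the unmoderated test, 2 at the adjusted threshold, and 797 to 2501 over the left-out arrays, the lowest without longissimus dorsi replicate 2 and the highest without soleus replicate 1. The share higher in soleus, 56.8%, was 49.4% to 64.8% over the left-out arrays. The causes were not tested. CTSB missed the limits without soleus replicate 3 and without longissimus dorsi replicate 1, and LAPTM5 without soleus replicate 2 and without longissimus dorsi replicate 1. A fit with the replicate block gave a count of 1688 (850 higher and 838 lower). It called 7 probe sets and 0 of the 4 genes at the adjusted threshold, against 2 probe sets without the block. The differences stayed at 0.67, 0.87, 0.72 and 0.65 with SEs of 0.19, 0.23, 0.20 and 0.21. The numbers were not taken as pairs, since the labels do not say that they mark a pig. Samples of the same number had deviations with correlations of -0.14, 0.11 and 0.25. These cannot decide whether the numbers mark pigs, because the 3 deviations of a muscle sum to 0. The mean correlation within muscles over the 6 pairs of genes was -0.01, and -0.05 without soleus replicate 3. Filters on low values, the pseudocount and the count of lysosomal genes over the whole array were not run, because the values are centred logs and names cover the authors' table alone. For that reason it is also unknown how far any value lies over background.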

Other observations

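The genes in this part were picked by title after their values were seen, from probe sets kept for differing between the muscles, so their directions are descriptions and no test is given. Further genes with links to the lysosome had higher means in soleus. SLC15A3, a lysosomal transporter of histidine and peptides, had 0.51, 0.10 and 0.82 in soleus replicates 1, 2 and 3, against -0.20, -0.10 and -0.43 in the longissimus dorsi replicates. P2RX4, an ATP-gated channel that also resides in lysosomes, had 0.44, 0.14 and 1.09 in soleus, against -0.14, -0.23 and -0.45 in longissimus dorsi. Both were lowest on soleus replicate 2 and highest on replicate 3. SMPDL3A, an acid sphingomyelinase-like phosphodiesterase, had a different order in soleus, with 0.54, 0.31 and 0.15, against -0.42, -0.52 and -0.15 in longissimus dorsi.

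Genes known from leukocytes ran both ways. Coagulation factor XIII A1, which tissue macrophages also make, had higher means in soleus on both of its listed probe sets (log2 differences 1.84 and 1.13). The chemokine receptor CCR1 (0.76) and the transcription factor IRF5 (0.68) also had higher means in soleus. CCR1 was highest on soleus replicate 2, at 0.93 against 0.23 and 0.14 on replicates 1 and 3, as LAPTM5 was. IRF5, with 0.29, 0.11 and 0.76 on replicates 1, 2 and 3, and both factor XIII A1 probe sets went the other way. They were lowest on soleus replicate 2 and highest on replicate 3. S100A9, an abundant protein of neutrophils and monocytes, had a lower mean in soleus (-0.45 in soleus and 0.64 in longissimus dorsi, log2 difference -1.09, SE 0.30). A probe set titled immunoglobulin VDJ region also had a lower mean in soleus (-0.66, SE 0.21).

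Some proteases outside the lysosome also had higher means in soleus. The matrix metallopeptidase MMP14 differed by 0.77, the disintegrin ADAM9 by 0.59, the serine protease PRSS23 by 0.72 and the proprotein convertase PCSK6 by 0.83. The inhibitor TIMP3 differed by 0.61. The proteasome lid subunit PSMD14 had a lower mean in soleus (-0.60, SE 0.20).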
